A study of Rattus norvegicus with 18 samples.

Results

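Liver transcriptomes of 6 NASH rats were compared with those of 6 control rats. These 12 rats were taken from the 18 of the series by the group named in their labels, with 1 library of whole liver RNA per rat, and the 6 rats of another group with a longer protocol (NASH-CH) were left out of the comparison. All animals were male Wistar rats. The NASH rats inhaled carbon tetrachloride (CCl4) and drank water with phenobarbital for 6 weeks, and were then fed a high-fat high-cholesterol diet (HFCD) without CCl4 for 4 weeks, 10 weeks in all. The control rats received standard chow and normal water for 12 weeks. CCl4, phenobarbital, the diet and the length of the protocol therefore differed together between the groups, and their parts in any difference cannot be told apart. Rats were housed 2 per cage, and the labels do not say which rats shared a cage.

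Non-alcoholic steatohepatitis (NASH) combines fat in hepatocytes with inflammation, hepatocyte injury and, later, fibrosis. Hepatocytes make cholesterol from acetyl-CoA through mevalonate and squalene, and fatty acids through citrate and malonyl-CoA. Both routes are driven by transcription factors of the SREBP family, which sterols hold back in the endoplasmic reticulum and which insulin activates. CCl4 is turned into a toxic radical by cytochrome P450 enzymes such as Cyp2e1 in hepatocytes around the central vein, and phenobarbital induces drug-metabolizing enzymes through the nuclear receptor CAR. Hepatic stellate cells store vitamin A at rest and make matrix as myofibroblasts, sinusoidal endothelial cells line the capillaries, and Kupffer cells are the resident macrophages.

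The libraries held from 19498534 to 27174015 counts in control rats and from 20827770 to 29491947 in NASH rats, a difference smaller than the spread between rats (exact permutation test, 2-sided p = 0.898). The 7SK and signal recognition particle RNA genes took 17.8 ± 2.34% of the counts in control rats and 15 ± 0.97% in NASH rats (SD, n = 6, exact permutation p = 0.0108), and the 10 most abundant genes took 51.8 ± 3.52% against 44.8 ± 1.08% (exact permutation p = 0.00216, the smallest p that 6 against 6 allows). Markers that define hepatocytes were abundant, with a summed level of 124100 to 184100 CPM (counts scaled to a common library size) in control rats and 85590 to 145700 CPM in NASH rats. Defining markers of neutrophils, T cells, B cells and adipocytes lay near 0 in both groups, at most 2.10 CPM in sum in any rat for each cell type, and none of them was abundant enough to be tested. On the first principal component of the 12 livers, which held 29.5% of the variance, control 6 (−13.3) lay within the range of the NASH rats (−32.0 to −6.97). Of the other control rats, control 2 (2.63) lay nearest to that range. Counts of called genes are also given without controls 2 and 6 for the lists whose counts moved most.

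In comparison to control animals, NASH livers had lower levels of 290 genes and higher levels of 354 genes, out of 12387 tested (limma-voom, Benjamini-Hochberg adjusted p under 0.05, the threshold for a called gene throughout). These are 2.34% and 2.86% of all tested genes, 5.2% together, and the shares of each gene group below are read against them. The gene lists were chosen with earlier results of these data known, so their shares are a description and not a test. At an unadjusted p under 0.05 there were 3131 of the 12387 tested genes, and edgeR called 725 and DESeq2 1474 of them. Counts of list members by these measures are read against those numbers. The median log2 fold change (NASH against control) was 0.00701 over all tested genes, and the called genes had a median absolute log2 fold change of 0.68. Among the called genes, 84 of those higher and 86 of those lower differed by 1 or more on the log2 scale. With CPM scaled by library size only, in place of the TMM factors used here, the median of all genes moved to 0.226, and 1630 genes were called higher and 144 lower, so that 91.9% of the called genes were higher instead of 55.0%.

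The number of called genes changed when single rats were left out. It fell to 248, 232, 262 and 292 without control 1, 3, 4 or 5, to 384, 221, 386 and 267 without NASH 1, 3, 4 or 5, and increased to 1382 without control 6. Without both control 2 and control 6 it was 2149 of 12550 tested genes (1034 higher, 1115 lower), and 606 of the 644 genes were among them. Counts by list in that fit are read against these numbers, since calls rose over all genes. Both rats were chosen from these data for lying among or nearest to the NASH rats, so the larger counts without them support nothing and are given as values. With the 18 rats of the series in 1 fit, the same contrast called 403 genes, 350 of them among the 644. A fit without 1 rat has fewer rats and less power, and its adjusted p is set anew over all genes. A call that ends in such a fit therefore does not show that the gene rests on that rat. Of 96 called named genes, 0 changed sign in any alternative fit.

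**Figure D1:**
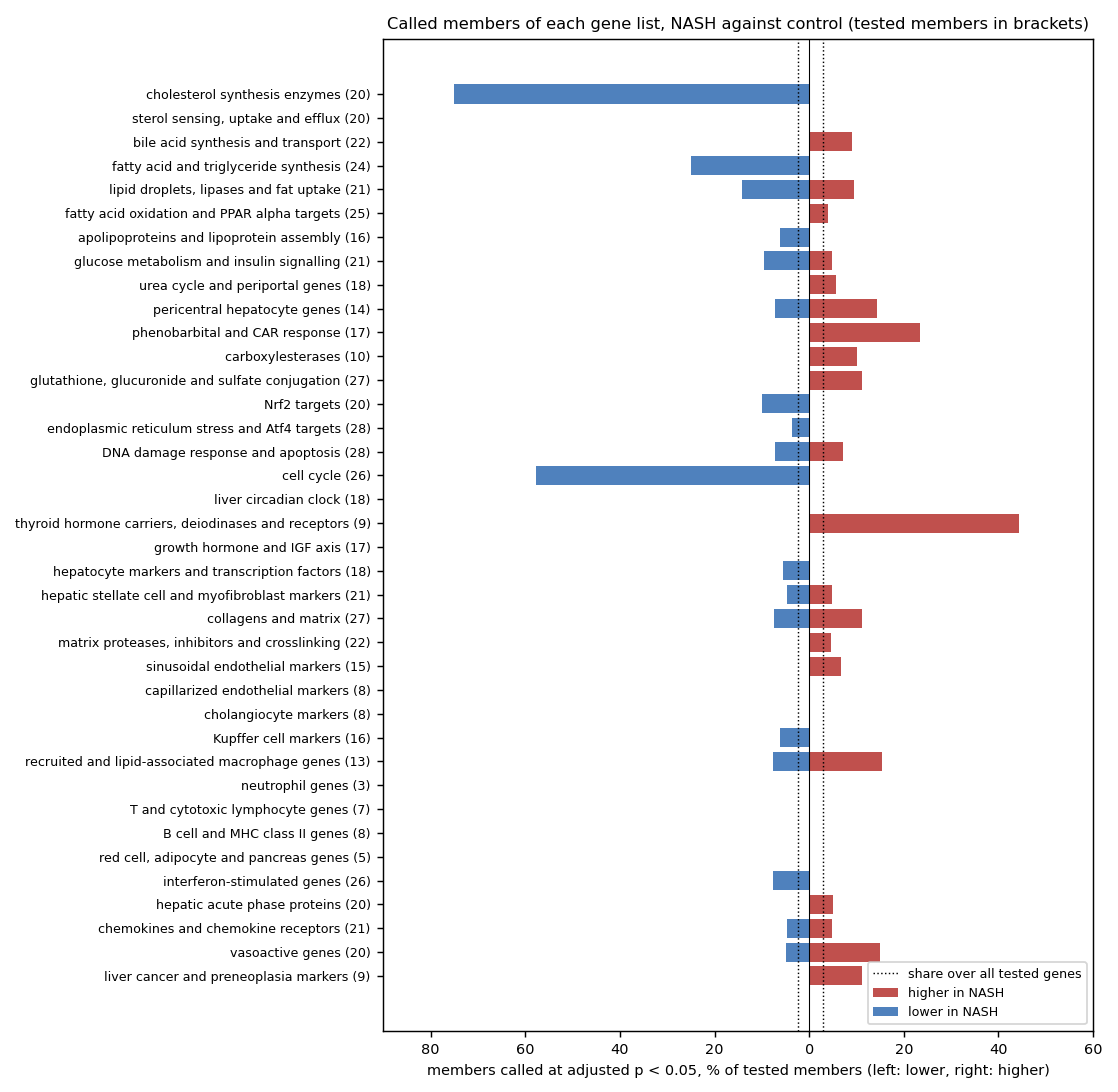
Called members of the 38 gene lists. Each bar gives the percentage of a list's tested members that were lower (left) or higher (right) in the 6 NASH rats than in the 6 control rats at an adjusted p under 0.05, and the dotted lines mark the shares over all tested genes, 2.34% lower and 2.86% higher. The longest bars belong to cholesterol synthesis (75.0% lower), the cell cycle (57.7% lower) and thyroid hormone carriers, deiodinases and receptors (44.4% higher). The lists were chosen with earlier results of these data known, and most cell cycle genes passed the filter on low counts through their control values. The lengths of the bars are therefore a description.

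Most cholesterol synthesis enzymes were lower in NASH livers. Of 20 enzymes, all of them tested, 15 were lower (75.0%, against 2.34% of all genes), 19 were lower at an unadjusted p under 0.05, and 0 were higher by limma-voom, by edgeR, by DESeq2 or at that unadjusted p. The median log2 fold change was −1.45, and 9 were lower in every NASH rat than in every control rat, which held for 1.33% of all genes. In the mevalonate part of the pathway, Acat2, which joins acetyl-CoA units, had 9.89, 18 and 27.5 CPM in control rats and 1.21, 3.64 and 5.59 CPM in NASH rats (lowest, median and highest, the order used throughout), with no overlap (log2 fold change −2.54 ± 0.37, adjusted p = 0.0041, ± being the SE). Mvd, the mevalonate diphosphate decarboxylase, had 7.98, 13.4 and 18.5 CPM in control rats and 0.969, 2.74 and 4.08 CPM in NASH rats, again without overlap (log2 fold change −2.55 ± 0.33, adjusted p = 0.00216). Fdps, which makes farnesyl diphosphate, had 162, 306 and 356 CPM in control rats and 30.2, 88.2 and 125 CPM in NASH rats, so that its highest NASH rat stayed below its lowest control rat (log2 fold change −2.0 ± 0.38, adjusted p = 0.0159). Pmvk, the phosphomevalonate kinase, was also lower without overlap (log2 fold change −1.43 ± 0.23, adjusted p = 0.00759). Hmgcs1, which makes HMG-CoA, Mvk, the mevalonate kinase, and Idi1, the isopentenyl diphosphate isomerase, were lower with groups that overlapped (log2 fold changes −1.59 ± 0.39, −0.88 ± 0.22 and −1.97 ± 0.46).

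Beyond the mevalonate part, Fdft1, the squalene synthase, Lss, which closes squalene epoxide into lanosterol, and Cyp51, the lanosterol demethylase, were lower in every NASH rat than in every control rat. Fdft1 had 115, 141 and 176 CPM in control rats and 23.8, 74.7 and 87.3 CPM in NASH rats (log2 fold change −1.33 ± 0.30, adjusted p = 0.0288). For Lss the values were 15.8, 21.5 and 31.5 CPM in control rats and 3.79, 8.69 and 13.1 CPM in NASH rats (log2 fold change −1.48 ± 0.30, adjusted p = 0.0185). Cyp51 ranged from 229 to 306 CPM in control rats and from 36.9 to 166 CPM in NASH rats (log2 fold change −1.51 ± 0.35, adjusted p = 0.0288). Dhcr7, which carries out the last reduction to cholesterol, had 49.4, 103 and 133 CPM in control rats and 15.6, 27.3 and 49.2 CPM in NASH rats, a narrow gap between the groups (log2 fold change −1.74 ± 0.32, adjusted p = 0.0144). The sterol desaturase Sc5d was lower without overlap (log2 fold change −0.69 ± 0.17), and Nsdhl and Tm7sf2, which act on the sterol ring, were lower with overlap (log2 fold changes −1.04 ± 0.20 and −1.5 ± 0.36). Sqle, Msmo1, Hsd17b7 and Ebp were not called and had a log2 fold change below 0 (adjusted p = 0.151, 0.075, 0.107 and 0.101). NASH 3 or NASH 4 had the lowest value of each of the enzymes named here. The number of called members was 7 without control 1, 3 or 4 or without NASH 3 or 5, and 10 without NASH 4. It was 15 without both control 2 and control 6 and 15 with all 18 rats. The calls of Hmgcs1, Mvk, Idi1, Fdft1, Cyp51, Tm7sf2 and Sc5d ended in at least 1 of those 5 fits with 7 members, and those of Acat2, Mvd, Fdps, Pmvk, Lss, Dhcr7 and Nsdhl held without any single rat. Without both control 2 and control 6 Hmgcs1 was not called (log2 fold change −1.20, adjusted p = 0.0568).

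Promoters of members of this pathway and of the cell cycle genes described below are shown since many members of both groups were lower. They come from RefSeq on the rat assembly GRCr8, a later assembly than the Rnor_6.0 used for the counts, and give the 120 bases before the annotated start of the gene, 5′ to 3′ on the gene's strand, with the CCAAT box (CCAAT, or ATTGG where it lies on the opposite strand) in capitals.
Mvd (chr19:67414975-67415094, minus strand): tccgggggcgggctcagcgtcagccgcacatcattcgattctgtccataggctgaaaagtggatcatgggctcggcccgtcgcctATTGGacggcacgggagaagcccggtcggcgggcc
Fdps (chr2:176804817-176804936, minus strand): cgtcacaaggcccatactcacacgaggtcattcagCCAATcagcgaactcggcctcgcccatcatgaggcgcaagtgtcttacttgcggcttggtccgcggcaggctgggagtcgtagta
Idi1 (chr17:66547525-66547644, minus strand): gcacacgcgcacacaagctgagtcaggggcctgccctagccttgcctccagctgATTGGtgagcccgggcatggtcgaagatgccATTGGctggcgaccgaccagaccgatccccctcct
Nsdhl (chrX:155817240-155817359, plus strand): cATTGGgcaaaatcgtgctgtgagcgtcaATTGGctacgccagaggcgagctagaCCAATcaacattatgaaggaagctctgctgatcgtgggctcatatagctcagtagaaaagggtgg
Mvk (chr12:47819504-47819623, minus strand): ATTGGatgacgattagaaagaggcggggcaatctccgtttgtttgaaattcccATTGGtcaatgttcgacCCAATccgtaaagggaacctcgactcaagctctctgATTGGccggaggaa
Prc1 (chr1:143659361-143659480, plus strand): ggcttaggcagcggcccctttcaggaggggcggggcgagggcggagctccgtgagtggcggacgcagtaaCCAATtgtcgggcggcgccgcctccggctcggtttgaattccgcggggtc
Mki67 (chr1:199952594-199952713, minus strand): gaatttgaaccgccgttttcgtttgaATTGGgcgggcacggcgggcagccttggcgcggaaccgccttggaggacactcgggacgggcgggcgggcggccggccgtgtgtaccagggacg
Cdk1 (chr20:19265173-19265292, plus strand): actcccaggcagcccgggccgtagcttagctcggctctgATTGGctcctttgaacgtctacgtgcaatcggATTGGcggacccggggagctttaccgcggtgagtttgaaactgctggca
Ccnb1 (chr2:33655226-33655345, minus strand): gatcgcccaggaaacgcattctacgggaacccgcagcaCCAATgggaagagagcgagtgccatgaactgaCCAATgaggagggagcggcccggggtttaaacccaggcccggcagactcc
Top2a (chr10:84473094-84473213, minus strand): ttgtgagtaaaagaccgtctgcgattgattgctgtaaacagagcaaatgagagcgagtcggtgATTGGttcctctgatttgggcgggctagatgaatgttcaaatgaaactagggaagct
The CCAAT box, which the factor NF-Y binds, was found on either strand within 250 bases before the start in 34.0% of the 33469 promoters of the table, in 12 of the 15 cholesterol synthesis promoters that matched a tested member and in 17 of 21 cell cycle promoters. Among promoters of called members it was in 9 of 12 and in 12 of 13. For fatty acid and triglyceride synthesis it was in 12 of 19 tested and 2 of 4 called members. The cell cycle homology region (TTTGAA), searched the same way, was in 16.2% of all promoters and in 7 of the 21. The sterol regulatory element in the form TCACNCCAC was in 0.974% of all promoters and in 0 of the 15, which says only that these letters were not in this window. These are matches of letters and not measured binding, and a link between them and the lower levels was not tested.

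Some fatty acid and triglyceride synthesis genes were also lower, and the count differed with the control rats included. Of 24 tested genes 6 were lower (25.0%, against 2.34% of all genes), 17 at an unadjusted p under 0.05, with a median log2 fold change of −0.878. Scd, the stearoyl-CoA desaturase, had 198, 3273 and 5546 CPM in control rats and 14.2, 199 and 396 CPM in NASH rats (log2 fold change −4.46 ± 1.00, adjusted p = 0.0268). Control 6 had 198 CPM of Scd and the other 5 control rats 2155 to 5546 CPM, so that control 6 lay within the NASH range of 14.2 to 396 CPM. Acly, which splits citrate into acetyl-CoA, had 143, 634 and 909 CPM in control rats and 39.1, 149 and 280.1 CPM in NASH rats (log2 fold change −2.10 ± 0.56, adjusted p = 0.0454), and Acss2, which activates acetate, had 39.1, 81.6 and 114 CPM in control rats and 10.2, 26.4 and 42.7 CPM in NASH rats (log2 fold change −1.81 ± 0.39, adjusted p = 0.0236). Me1, the malic enzyme that supplies NADPH, had 9.74, 27.3 and 41 CPM in control rats and 4.95, 8.83 and 13.1 CPM in NASH rats (log2 fold change −1.60 ± 0.32, adjusted p = 0.0187). Acaca, the acetyl-CoA carboxylase, and Elovl6, a fatty acid elongase, were lower as well (log2 fold changes −1.08 ± 0.28 and −3.51 ± 0.92). Fasn, the fatty acid synthase, had 137, 575 and 1452 CPM in control rats and 32.4, 186 and 415 CPM in NASH rats and was not called (log2 fold change −2.07 ± 0.73, adjusted p = 0.105), and Srebf1, which encodes SREBP-1, had a log2 fold change of −0.66 ± 0.55 (adjusted p = 0.494). In each of these genes at least control 6 overlapped with the NASH rats. Without control 6 the called members numbered 14, and without both control 2 and control 6 they numbered 15. Only 1 member was called without control 1 or 4 or without NASH 3, 2 without control 3 or 5, and 3 without NASH 4 or 5. The call of Me1 held without any single rat, and those of Scd (control 1, 3, 4 or 5, or NASH 3), Acss2 (control 1 or 4, or NASH 3), Acly (control 1, 2, 3, 4 or 5, or NASH 3, 4 or 5), Acaca (control 1, 2, 3, 4 or 5, or NASH 2, 3, 4 or 5) and Elovl6 (control 1, 3, 4 or 5, or NASH 1, 3, 4, 5 or 6) ended without the rats in brackets.

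Genes of the circadian clock also set control rats apart from each other. Of 18 tested clock genes 0 were called between the groups by limma-voom (median log2 fold change 0.103). An unadjusted p under 0.05 was found for 5 of the 18, and for 3131 of all 12387 tested genes. By edgeR 1 clock gene was called and by DESeq2 4, against 725 and 1474 of all tested genes. Nr1d1, which encodes the clock repressor REV-ERB alpha, was at 0.908 to 2.56 CPM in controls 1, 3, 4 and 5, at 28.6 CPM in control 2 and at 54.4 CPM in control 6, and at 14.8 to 45.7 CPM in the NASH rats. Dbp, an output gene of the clock, was at 0.822 to 1.72 CPM in controls 1, 3, 4 and 5, at 7.51 and 28.1 CPM in controls 2 and 6, and at 1.45 to 55.8 CPM in NASH rats. Arntl, which encodes the activator BMAL1, had the opposite order, with 24.9 to 30.6 CPM in those 4 control rats and 8.67 and 5.20 CPM in controls 2 and 6. NASH 1 and NASH 4 had 25.3 and 23.8 CPM of Arntl and the other NASH rats 1.24 to 10.2 CPM. Nr1d1, Dbp and Arntl thus set controls 2 and 6 apart from the other control rats. NASH 1 and NASH 4 had Arntl near that of controls 1, 3, 4 and 5 but, like every NASH rat, higher Nr1d1 than those control rats. Both lay within the NASH range on the first principal component, at −15.9 and −32.0. The hour at which each liver was taken is not given in the sources used here. When controls 2 and 6 were both left out, 3 clock genes were higher and 2 lower, among them Nr1d1 (log2 fold change 4.01, adjusted p = 0.00161) and its relative Nr1d2 (log2 fold change 2.46, adjusted p = 0.000912), while Dbp and Arntl were not called (adjusted p = 0.214 and 0.0606). Both rats were chosen from these data and had the highest Nr1d1 of the control rats. Leaving them out raises the difference in Nr1d1 by itself, so these values are a description and not a test. Without control 6 alone 3 were higher and 1 lower. The part of the clock in the differences between the groups was not tested.

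**Figure D2:**
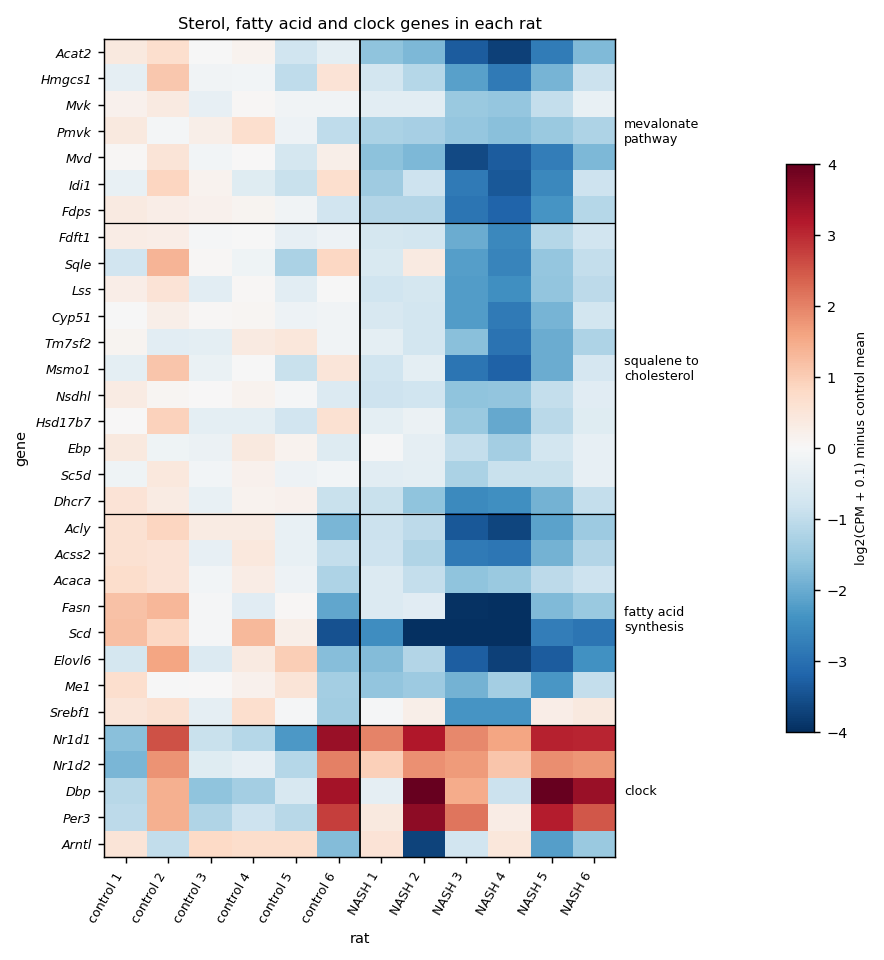
Sterol, fatty acid and clock genes in each rat. Colours give log2(CPM + 0.1) minus the mean of the 6 control rats, from blue (lower) to red (higher), capped at 4 in both directions, with rats in columns and genes in rows. NASH 3 and 4 have the lowest sterol genes, and control 6 has low fatty acid synthesis genes and, with control 2, high Nr1d1 (54.4 and 28.6 CPM) and low Arntl.

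Genes that sense, take up or export sterols gave no call. Among 20 tested genes 0 were called by limma-voom (median log2 fold change −0.0897) or by edgeR. An unadjusted p under 0.05 was found for 6 of the 20, and for 3131 of all 12387 tested genes. DESeq2 called 2 of the 20, and 1474 of all tested genes. The largest moderated t belonged to Insig1, which retains SREBPs in the endoplasmic reticulum (log2 fold change −0.85 ± 0.25, adjusted p = 0.0663). Abcg5, which exports sterols into bile, had 2.24, 3.53 and 9.15 CPM in control rats and 3.43, 8.79 and 17.8 CPM in NASH rats (log2 fold change 1.07 ± 0.39, adjusted p = 0.115). Of these genes 3 were higher without both control 2 and control 6, and Abcg5 was called (log2 fold change 1.48, adjusted p = 0.0439). In bile acid synthesis and transport, 2 of 22 tested genes were called, both of them higher (9.09%, against 2.86% of all genes, median log2 fold change 0.0086). They were Cyp7b1, of the alternative route of bile acid synthesis, with 3.32, 4.14 and 8.99 CPM in control rats and 8.2, 11.6 and 14.8 CPM in NASH rats (log2 fold change 1.19 ± 0.23, adjusted p = 0.0177), and Acox2, which shortens the side chain of bile acid precursors (log2 fold change 0.52 ± 0.13, adjusted p = 0.0363). Neither Cyp7a1, the rate-limiting enzyme of the classical route (log2 fold change −1.28 ± 0.59, adjusted p = 0.196), nor Cyp8b1, which makes cholic acid (log2 fold change 1.51 ± 0.43, adjusted p = 0.0614), was called. The call of Acox2 ended without control 1, 3, 4 or 5 or without NASH 1, 2, 3, 5 or 6, and that of Cyp7b1 held without any single rat. With all 18 rats 0 of 23 tested bile acid genes were called by limma-voom, with 4 at an unadjusted p under 0.05, and 4 were higher without both control 2 and control 6, where Cyp8b1 was called (log2 fold change 2.13, adjusted p = 0.000679).

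Genes that handle fat in the liver were called in both directions, and most of them were not called. Among 21 tested genes of lipid droplets, lipases and fat uptake, 2 were higher (9.52%, against 2.86% of all genes), 3 lower (14.3%, against 2.34%) and 16 neither (median 0.0292). Lpl, the lipoprotein lipase that frees fatty acids from circulating particles and is low in healthy adult liver, had 5.49, 7.12 and 7.59 CPM in control rats and 16.1, 18.8 and 26.5 CPM in NASH rats (log2 fold change 1.59 ± 0.14, adjusted p = 0.000161). All 6 NASH rats were above all control rats, which held for 1.77% of all tested genes. Slc27a2, a fatty acid transporter and acyl-CoA synthetase, was higher (log2 fold change 0.71 ± 0.15, adjusted p = 0.0227). Fabp1, the liver fatty acid-binding protein, had 1538, 1916 and 2043 CPM in control rats and 917, 1149.5 and 1475 CPM in NASH rats, without overlap (log2 fold change −0.68 ± 0.13, adjusted p = 0.0168). Mgll, the monoglyceride lipase, and Plin3, a droplet coat protein, were lower (log2 fold changes −0.54 ± 0.12 and −0.52 ± 0.14). Among 25 tested genes of fatty acid oxidation and PPAR alpha targets, only Ppara itself was called (4.0%, against 2.86% of all genes), and was higher (log2 fold change 0.92 ± 0.20, adjusted p = 0.0241). Cpt1a, which admits fatty acids into mitochondria, was not called (log2 fold change 1.02 ± 0.35, adjusted p = 0.096). Apoa1, the main protein of HDL, was the 1 lower gene among 16 tested apolipoproteins and assembly factors (6.25%, against 2.34% of all genes), with 1278, 1399 and 1598 CPM in control rats and 663, 747 and 1107 CPM in NASH rats (log2 fold change −0.81 ± 0.15, adjusted p = 0.0125). Acsf2, an acyl-CoA synthetase, had the smallest adjusted p of the genes named here, with 11.9, 18.1 and 19.9 CPM in control rats and 3.91, 4.57 and 5.12 CPM in NASH rats (log2 fold change −1.91 ± 0.14, adjusted p = 2.99e-05), and Aacs, which activates acetoacetate for lipid synthesis, had 4.41, 9 and 19.1 CPM in control rats and 0.856, 0.989 and 2.08 CPM in NASH rats (log2 fold change −3.06 ± 0.43, adjusted p = 0.0037). Calls of this paragraph that ended without 1 rat were those of Slc27a2 (control 4 or NASH 3), Ppara (control 3 or 5, or NASH 3), Mgll (control 1, 4 or 5, or NASH 3 or 5) and Plin3 (control 1, 2, 3, 4 or 5, or NASH 1, 3, 4, 5 or 6). With all 18 rats the lipid droplet list had 1 higher and 0 lower genes. With controls 2 and 6 left out it had 2 higher and 5 lower, 3 apolipoprotein genes were lower and 1 higher, and 2 genes of fatty acid oxidation were higher, with Cpt1a called (log2 fold change 1.52, adjusted p = 0.000775).

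Some drug-metabolizing genes that phenobarbital is known to induce were higher, although by the stated protocol it was not given in the last 4 weeks. Of 17 tested genes of the phenobarbital and CAR response, 4 were higher (23.5%, against 2.86% of all genes), 12 at an unadjusted p under 0.05, 16 had a log2 fold change above 0, and the median was 0.712. Between 4 and 6 were called without any 1 rat, 4 with all 18 rats, and 10 with library size scaling only. Cyp3a2, a steroid and drug hydroxylase, had 437, 567 and 966 CPM in control rats and 1127, 1469 and 2084 CPM in NASH rats (log2 fold change 1.31 ± 0.22, adjusted p = 0.00862), and Cyp3a23/3a1, a close relative, had 672, 889 and 1484 CPM in control rats and 1601, 1888 and 3140.2 CPM in NASH rats (log2 fold change 1.15 ± 0.21, adjusted p = 0.0144). Ces2c, a carboxylesterase, had 4.78, 8.03 and 9.98 CPM in control rats and 13, 43.4 and 125 CPM in NASH rats (log2 fold change 2.55 ± 0.51, adjusted p = 0.0187), and it was the 1 called gene among 10 tested carboxylesterases (10.0%, against 2.86% of all genes). These genes did not overlap between the groups, and the pseudogene Cyp3a85-ps was also higher (log2 fold change 1.34 ± 0.21, adjusted p = 0.00579). Cyp2b2, a classical phenobarbital-induced gene, was not called (log2 fold change 0.84 ± 1.13, adjusted p = 0.68). It ranged from 6.28 to 45.5 CPM in control rats and from 5.81 to 1069 CPM in NASH rats, the highest value being that of NASH 2. Members of the Cyp3a, Ces2 and Gstm families resemble each other in sequence, and the division of reads between them by RSEM is uncertain.

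Among 27 tested genes of glutathione, glucuronide and sulfate conjugation, 3 were called, all of them higher (11.1%, against 2.86% of all genes, median −0.0412). Gstm3, a glutathione transferase, had 0.0801, 0.217 and 1.88 CPM in control rats and 2.6, 6.63 and 27.1 CPM in NASH rats (log2 fold change 4.21 ± 1.00, adjusted p = 0.0327). Gstm3 was low in most control rats and passed the filter on low counts through its NASH values, so its call is a description. Gstm7, a relative of Gstm3, and the sulfotransferase Sult1c2 were higher too (log2 fold changes 0.61 ± 0.15 and 0.82 ± 0.17). Of 20 tested Nrf2 targets, which respond to oxidative stress, 2 were called, both of them lower (10.0%, against 2.34% of all genes). They included Gss, the glutathione synthetase (log2 fold change −0.54 ± 0.14, adjusted p = 0.0408). Sdf2l1, an endoplasmic reticulum chaperone component, was the 1 called gene among 28 of the endoplasmic reticulum stress and Atf4 list (3.57%, against 2.34% of all genes), and was lower (log2 fold change −1.20 ± 0.25, adjusted p = 0.0204). The medians of both lists were −0.0791 and −0.11. Sdf2l1 held its call without any single rat. The calls of Gstm3 (control 1, 3, 4 or 5, or NASH 1, 3 or 4), Gstm7 (control 3, 4 or 5, or NASH 1, 2, 3 or 5), Sult1c2 (control 1, 3 or 4, or NASH 3 or 5) and Gss (control 1, 2, 3 or 4, or NASH 1, 3, 5 or 6) ended without the rats in brackets. With all 18 rats 0 conjugation genes were called by limma-voom, with 7 at an unadjusted p under 0.05, and 3 Nrf2 targets were lower. Leaving out controls 2 and 6 gave 3 higher and 3 lower conjugation genes, 1 higher and 4 lower Nrf2 targets, without Gss (log2 fold change −0.50, adjusted p = 0.0519), and 4 higher and 9 lower genes of the endoplasmic reticulum stress list. In that list 1 was higher and 8 were lower without control 6 alone.

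Thyroid hormone genes formed a small group in which 4 of 9 tested members were higher (44.4%, against 2.86% of all genes, median 0.582). The members were chosen with earlier results of these data known, so this share is a description. Serpina7, the thyroxine-binding globulin of plasma, had 0.541, 1.23 and 2.22 CPM in control rats and 4.98, 15.1 and 20.2 CPM in NASH rats, without overlap (log2 fold change 3.20 ± 0.46, adjusted p = 0.0041). Slc16a10, a transporter of aromatic amino acids and thyroid hormone, had 5.89, 8.28 and 18.6 CPM in control rats and 18, 26.6 and 30.3 CPM in NASH rats, and control 6 with 18.6 CPM lay just above the lowest NASH rat (log2 fold change 1.49 ± 0.22, adjusted p = 0.00466). Thrb, the thyroid hormone receptor beta, was higher (log2 fold change 0.58 ± 0.15, adjusted p = 0.0457). Its call ended in each fit without 1 rat except those without control 2 or control 6. The number of higher members was 2 without control 1, 3 or 4 or without NASH 1, 3 or 5, 3 with all 18 rats, and 5, with 1 lower, without both control 2 and control 6. Among 17 tested genes of the growth hormone and IGF axis 0 were called by limma-voom, by edgeR or by DESeq2, with 2 at an unadjusted p under 0.05, and Igf1 had the largest moderated t (log2 fold change −0.32 ± 0.12, adjusted p = 0.118). Without controls 2 and 6, where 1115 of all 12550 tested genes were lower, 4 genes of this axis were lower, Igf1 included (log2 fold change −0.41, adjusted p = 0.0265).

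Calls among hepatocyte genes differed between lists. Of 18 tested hepatocyte markers and transcription factors, Apoa1 was the 1 called gene (5.56% lower, against 2.34% of all genes), and the median log2 fold change was −0.0646. Of 14 tested pericentral genes 2 were higher (14.3%, against 2.86% of all genes) and 1 lower (7.14%, against 2.34%), with a median of 0.0613. Slc1a2, a glutamate transporter, had 0.681, 1.88 and 2.95 CPM in control rats and 5.77, 7.67 and 11.3 CPM in NASH rats, without overlap (log2 fold change 2.26 ± 0.29, adjusted p = 0.00216). Cyp2e1, which activates CCl4, had 522, 687 and 1888 CPM in control rats and 1474, 1849 and 2748 CPM in NASH rats (log2 fold change 1.32 ± 0.28, adjusted p = 0.0227). The highest control value of Cyp2e1, 1888 CPM, was that of control 6, and the other control rats stayed below every NASH rat. Lect2, a secreted hepatokine, was lower (log2 fold change −0.63 ± 0.14, adjusted p = 0.0261), and Glul, the glutamine synthetase of the innermost pericentral cells, was not called (log2 fold change −0.48 ± 0.16, adjusted p = 0.096). Tdo2, which degrades tryptophan, was the 1 higher gene among 18 urea cycle and periportal genes (5.56%, against 2.86% of all genes). Its log2 fold change was 0.84 ± 0.18 (adjusted p = 0.0236), and the median of the list was 0.083. In glucose metabolism and insulin signalling, 21 genes were tested, 4.76% of them higher and 9.52% lower (2.86% and 2.34% of all genes). Foxo1, which drives gluconeogenic genes when insulin is low, was higher (log2 fold change 0.69 ± 0.17, adjusted p = 0.0344), and Pck2, the mitochondrial PEP carboxykinase, and Akt2, a kinase of insulin signalling, were lower (log2 fold changes −0.71 ± 0.14 and −0.40 ± 0.09, median of the list −0.0708). The calls of Cyp2e1 (control 1 or NASH 3), Lect2 (control 3 or 5, or NASH 1, 3 or 5), Tdo2 (control 1 or 5, or NASH 3), Foxo1 (control 1, 3, 4 or 5, or NASH 1, 3, 4 or 5) and Akt2 (control 1, 3 or 4, or NASH 3 or 5) ended without the rats in brackets. With all 18 rats 0 genes of the periportal list were called by limma-voom, with 3 at an unadjusted p under 0.05. Glucose metabolism then had 0 higher and 2 lower genes. Without both control 2 and control 6 there were 3 higher and 2 lower pericentral genes, 2 higher and 1 lower periportal genes, and 3 higher and 4 lower genes of glucose metabolism.

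Many cell cycle genes were lower in NASH livers. Of 35 listed genes, 26 passed the filter on low counts, 8 did not and 1 was not analysed here. Of the 26, 15 were lower (57.7%, against 2.34% of all genes), 21 at an unadjusted p under 0.05, and 14 were lower in every NASH rat than in every control rat (1.33% of all genes), with a median log2 fold change of −1.39. Most of these genes were low in both groups and passed the filter through their control values, so these counts are a description. Mki67, the proliferation marker Ki-67, had 3.53, 5.07 and 11.1 CPM in control rats and 1.13, 1.4 and 1.87 CPM in NASH rats (log2 fold change −1.96 ± 0.27, adjusted p = 0.0037). Cdk1, the kinase that drives entry into mitosis, had 0.624, 0.744 and 2.1 CPM in control rats and 0.0867, 0.123 and 0.166 CPM in NASH rats (log2 fold change −2.67 ± 0.38, adjusted p = 0.00398), and its partner cyclin Ccnb1 had 0.52, 1.26 and 2.68 CPM in control rats and 0, 0.06 and 0.183 CPM in NASH rats (log2 fold change −4.22 ± 0.63, adjusted p = 0.0044). Kif20a and Prc1, which build the midzone of the dividing cell, had log2 fold changes of −3.01 ± 0.42 and −2.53 ± 0.34, with groups that did not overlap. Top2a, which untangles replicated DNA, and Rrm2, which makes deoxynucleotides, showed the same order of the groups (log2 fold changes −2.95 ± 0.56 and −4.10 ± 0.77). Ccnd1, the cyclin of G1 phase, was the most abundant of the called members, with 13.8, 19.5 and 45 CPM in control rats and 5.68, 8.53 and 11.4 CPM in NASH rats (log2 fold change −1.37 ± 0.26, adjusted p = 0.0154). Pcna, the sliding clamp of replication, was not called (log2 fold change −0.31 ± 0.14, adjusted p = 0.172). In bulk liver, fewer dividing cells and less RNA per cell cannot be told apart.

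The number of called cell cycle genes, a description for the reason just given, was 11 (without control 1) to 20 (without control 6) in the fits that left out 1 rat, and 21 without both control 2 and control 6. With all 18 rats in 1 fit by limma-voom, 0 of 32 tested members were called although their median log2 fold change was −1.71 and 23 had an unadjusted p under 0.05. The 12 rats alone gave 16 called members by edgeR and 18 by DESeq2, and among genes with at least 10 counts in every rat 4 of 11 were called, with a median log2 fold change of −0.399 in place of −1.39. Control 5 had the highest level of Mki67, Cdk1, Ccnb1, Kif20a, Prc1, Top2a and Rrm2. The calls of Nusap1, Bub1, Birc5, Cenpe and Mcm3 ended without at least 1 rat (control 1 or 3, or NASH 3, 4 or 5 for Nusap1, control 3, or NASH 3 or 4 for Bub1, control 1, 4 or 5, or NASH 1, 3 or 5 for Birc5, each rat except control 2, control 6 and NASH 6 for Cenpe, and control 1, 3 or 5 for Mcm3). Among 28 tested genes of the DNA damage response and apoptosis 2 were higher (7.14%, against 2.86% of all genes) and 2 lower (7.14%, against 2.34%), with a median of 0.316. Ccng1, the damage-induced cyclin G1, had 19.6, 21.7 and 26.1 CPM in control rats and 27.5, 48.5 and 72.2 CPM in NASH rats, without overlap (log2 fold change 1.12 ± 0.19, adjusted p = 0.00965), and Mdm2, a ubiquitin ligase, had 11.8, 14.4 and 25.3 CPM in control rats and 23.1, 26.5 and 40.2 CPM in NASH rats (log2 fold change 0.87 ± 0.20, adjusted p = 0.0268). Casp8, an initiator caspase, was lower (log2 fold change −0.55 ± 0.14, adjusted p = 0.0414). The calls of Mdm2 (control 1, 3, 4 or 5, or NASH 3) and Casp8 (control 1, 3, 4 or 5, or NASH 1, 2, 3, 4 or 5) ended without the rats in brackets. Of this list 3 were higher and 2 lower with all 18 rats, 7 higher and 4 lower without both control 2 and control 6, and 1 higher and 0 lower without NASH 3.

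**Figure D3:**
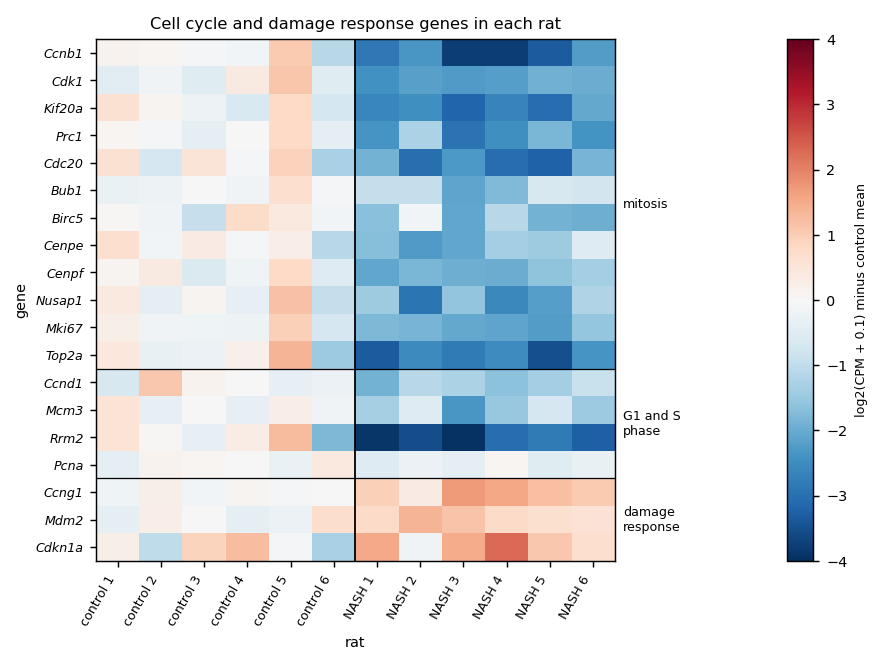
Cell cycle and damage response genes in each rat. Colours give log2(CPM + 0.1) minus the mean of the 6 control rats, capped at 4 in both directions, with rats in columns and genes in rows. Cyclin B1 (Ccnb1) reaches at most 0.183 CPM in NASH rats against at least 0.52 CPM in control rats, and Ccng1 lies higher in all 6 NASH rats.

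Stellate cell and matrix genes were called in both directions, and their number depended on the rats and on the scaling. Among 21 tested stellate cell and myofibroblast markers 1 was higher (4.76%, against 2.86% of all genes) and 1 lower (4.76%, against 2.34%), with a median of 0.122. Rgs5, a regulator of G protein signalling of pericytes and activated stellate cells, had 1.01, 1.27 and 1.66 CPM in control rats and 3.23, 3.56 and 5.29 CPM in NASH rats, without overlap (log2 fold change 1.5 ± 0.17, adjusted p = 0.00127). Lrat, which esterifies retinol for storage in quiescent stellate cells, had 31.2, 32.6 and 45.5 CPM in control rats and 19.1, 23.8 and 25.7 CPM in NASH rats, also without overlap (log2 fold change −0.58 ± 0.11, adjusted p = 0.0144). Defining stellate cell and myofibroblast markers summed to 72.8 to 104 CPM in control rats and to 87.0 to 140.5 CPM in NASH rats. Of 27 tested collagens and matrix genes 3 were higher (11.1%, against 2.86% of all genes) and 2 lower (7.41%, against 2.34%), and 21 had a log2 fold change above 0 (median 0.22). Bgn, the proteoglycan biglycan, had 17.8, 21.7 and 29.8 CPM in control rats and 31.2, 36.8 and 53.6 CPM in NASH rats (log2 fold change 0.74 ± 0.15, adjusted p = 0.0196). Thbs2, a matricellular thrombospondin, and Nid1, a basement membrane protein, were higher (log2 fold changes 0.52 ± 0.12 and 0.34 ± 0.08), and Lum, the proteoglycan lumican, and Eln, elastin, were lower (log2 fold changes −1.36 ± 0.30 and −0.93 ± 0.23). Of 22 tested matrix proteases, inhibitors and crosslinking enzymes, only Mmp12, the macrophage metalloelastase, was called (4.55%, against 2.86% of all genes). It had 0.0375, 0.182 and 0.242 CPM in control rats and 1.53, 2.45 and 5.25 CPM in NASH rats, with every NASH rat above every control rat (log2 fold change 4.01 ± 0.52, adjusted p = 0.00216). Mmp12 lay near 0 in control rats and passed the filter on low counts through its NASH values, so its call and separation are a description. The calls of Thbs2 (control 1, 3 or 5, or NASH 3, 4 or 5), Nid1 (control 1, 4 or 5, or NASH 1, 3 or 5), Lum (control 1, 4 or 5, or NASH 3 or 4) and Eln (control 1, 3 or 5, or NASH 2, 3, 4, 5 or 6) ended without the rats in brackets. Of the collagens and matrix genes 0 were higher and 1 lower with all 18 rats, 7 higher and 2 lower without both control 2 and control 6, and 12 higher and 2 lower with library size scaling only. The fit without controls 2 and 6 gave 2 higher and 3 lower stellate cell markers and 3 higher and 1 lower genes of the proteases and inhibitors.

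Among genes whose proteins the study stained or blotted, Mpo was too low to be tested and 0 of 9 others were called by limma-voom or by edgeR, with 1 at an unadjusted p under 0.05 and 1 called by DESeq2. For the stellate cell genes, the 95% confidence interval of the log2 fold change was −0.58 to 0.49 for Acta2 (alpha smooth muscle actin), −0.26 to 0.44 for Des (desmin) and −0.32 to 0.10 for Msn (moesin). That of Col1a1, the main collagen of scar, was −0.40 to 0.42, with 6.25, 8.43 and 10.0 CPM in control rats and 5.42, 7.59 and 11.9 CPM in NASH rats. For the endothelial genes it was −0.02 to 0.74 for Nos3 (endothelial nitric oxide synthase), −0.28 to 0.13 for Fcgr2b (CD32b) and 0.14 to 1.02 for Vwf (von Willebrand factor). Vwf had 7.7, 10.6 and 13.9 CPM in control rats and 8.96, 16.8 and 22 CPM in NASH rats, and its adjusted p was 0.104. For the macrophage genes it was −0.25 to 0.39 for Cd68 and −0.43 to 0.14 for Cd163. The interval of Vwf did not include 0, yet the gene missed the adjusted threshold. Transcript levels say nothing of phosphorylated forms of these proteins. The sign of Acta2, Msn, Fcgr2b and Cd163 turned to higher with library size scaling only, and that of Acta2 and Col1a1 also turned when single rats were left out.

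**Figure D4:**
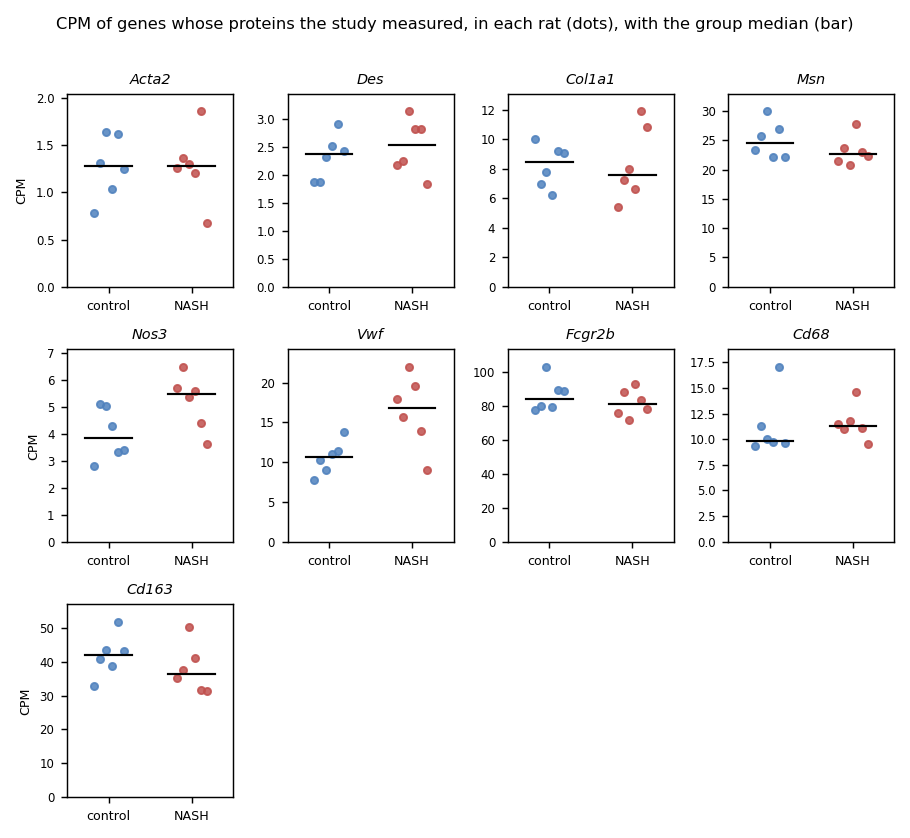
Genes whose proteins the study measured. Each panel gives CPM from 0 upwards for 6 control and 6 NASH rats as points, with the group median as a bar. The groups overlap in all 9 genes, and Vwf shows the largest difference of medians in relative terms (10.6 and 16.8 CPM).

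A few macrophage genes were called, in both directions, and most members of both lists were not. Of 16 tested Kupffer cell markers 1 was called, and was lower (6.25%, against 2.34% of all genes, median −0.265). Marco, a scavenger receptor of tissue macrophages, had 12.3, 23.1 and 41.7 CPM in control rats and 2.29, 2.92 and 9.2 CPM in NASH rats, without overlap (log2 fold change −2.78 ± 0.34, adjusted p = 0.00182). Clec4f, which defines rat Kupffer cells, was not called (log2 fold change −0.34 ± 0.20, adjusted p = 0.295), and the defining Kupffer cell markers summed to 141.5 to 300.0 CPM in control rats and to 109 to 175 CPM in NASH rats. Of 13 tested genes of recruited and lipid-associated macrophages 2 were higher (15.4%, against 2.86% of all genes) and 1 lower (7.69%, against 2.34%), with a median of −0.0116. They were Lpl, described above, Gpnmb, a glycoprotein of lipid-laden macrophages, with 2.53, 7.45 and 8.79 CPM in control rats and 13.6, 20 and 23.9 CPM in NASH rats (log2 fold change 1.57 ± 0.26, adjusted p = 0.00776), and Fabp5, a fatty acid-binding protein, which was lower (log2 fold change −1.05 ± 0.28, adjusted p = 0.0465). Trem2 was too low to be tested. The call of Fabp5 ended in each fit without 1 rat except those without control 2 or control 6, and those of Marco, Gpnmb and Lpl held without any single rat. That of Mmp12, a description for the reason given with its values, held as well. Without both control 2 and control 6, 3 Kupffer cell markers were lower, and 3 genes of the recruited and lipid-associated list were higher and 2 lower. Cd68, a marker shared by macrophages, had 9.32 to 17.1 CPM in control rats and 9.51 to 14.6 CPM in NASH rats.

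**Figure D5:**
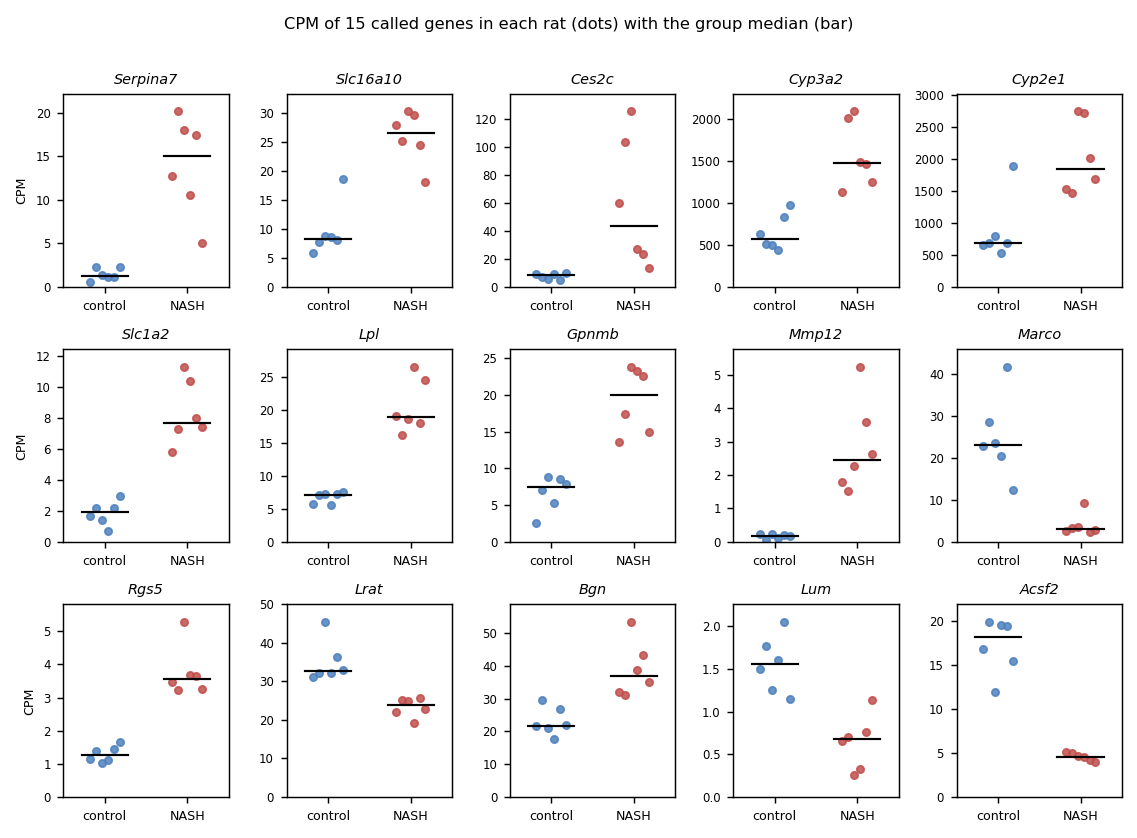
CPM of 15 called genes in each rat. Each panel starts at 0 and gives 6 control and 6 NASH rats as points and the group median as a bar. Lpl, Gpnmb, Mmp12, Rgs5, Bgn, Serpina7, Ces2c, Cyp3a2 and Slc1a2 lie higher in every NASH rat, Marco, Lrat, Lum and Acsf2 lie lower in every NASH rat, and in Slc16a10 and Cyp2e1 control 6 overlaps with the NASH rats. Mmp12 passed the filter on low counts through its NASH values, and the genes named for the largest differences were picked among genes without overlap.

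Other immune genes gave calls in some lists and none in others. Among 26 tested interferon-stimulated genes 2 were called, both of them lower (7.69%, against 2.34% of all genes). Of the 26 genes, 25 had a log2 fold change below 0, and the median was −0.385. Ifi27 had 178, 197 and 282 CPM in control rats and 117, 139 and 154 CPM in NASH rats (log2 fold change −0.65 ± 0.13, adjusted p = 0.0203), and Gbp2, a guanylate-binding protein, had 5.41, 7.34 and 15.5 CPM in control rats and 2.6, 3.86 and 5.05 CPM in NASH rats (log2 fold change −1.16 ± 0.25, adjusted p = 0.0236), both without overlap. Ifi27l2b, a relative of Ifi27 outside that list, was lower as well (log2 fold change −1.45 ± 0.16, adjusted p = 0.00127). In 21 tested chemokines and their receptors 1 was higher (4.76%, against 2.86% of all genes) and 1 lower (4.76%, against 2.34%), with a median of −0.469. They were Cxcl13, which attracts B cells (log2 fold change 1.15 ± 0.27, adjusted p = 0.0308), and Ccl6, a macrophage chemokine (log2 fold change −0.92 ± 0.17, adjusted p = 0.0159). Lbp, which binds bacterial lipopolysaccharide, was the 1 called gene among 20 hepatic acute phase proteins (5.0%, against 2.86% of all genes), and was higher (log2 fold change 0.77 ± 0.21, adjusted p = 0.0468, median of the list 0.151). Limma-voom called 0 of 3 tested neutrophil genes, 7 T and cytotoxic lymphocyte genes, and 8 B cell and MHC class II genes (medians −0.469, −0.118 and −0.199). At an unadjusted p under 0.05 there were 0, 1 and 2 of them (3131 of all 12387 tested genes), and edgeR and DESeq2 each called 1 neutrophil gene and 0 of the others. Their largest moderated t belonged to Lcn2 (adjusted p = 0.386), Ccl5 (adjusted p = 0.165) and RT1-Ba (adjusted p = 0.16). Lcn2 reached 91.3 CPM in NASH 1 and had a median of 5.22 CPM in NASH rats and 1.57 CPM in control rats. Of the called genes, Cxcl13 (control 1 or 4, or NASH 1, 3 or 5) and Lbp (control 1, 3, 4 or 5, or NASH 1, 2, 3, 4 or 5) lost the call without the rats in brackets. With all 18 rats 1 interferon-stimulated gene was lower, and 0 chemokine genes were higher and 1 lower. In the fit without controls 2 and 6 there were 5 lower interferon-stimulated genes and 3 higher and 2 lower chemokine genes.

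Calls among genes of the vessels and bile ducts differed between lists. Stab1, a scavenger receptor, was the 1 called gene among 15 tested sinusoidal endothelial markers and was higher (6.67%, against 2.86% of all genes). It had 13.4, 16.2 and 21.9 CPM in control rats and 21.1, 24.5 and 30.6 CPM in NASH rats (log2 fold change 0.59 ± 0.13, adjusted p = 0.0263, median of the list 0.0904). Among 8 tested markers of capillarized endothelium 0 were called by limma-voom or by edgeR, with 2 at an unadjusted p under 0.05 and 1 called by DESeq2, and Vwf had the largest moderated t (median of the list 0.265). Among 8 tested cholangiocyte markers 0 were called by limma-voom or by edgeR, with 3 at an unadjusted p under 0.05 and 1 called by DESeq2. Krt19, a keratin of bile ducts, lay just outside the threshold with every NASH rat below every control rat (log2 fold change −0.97 ± 0.27, adjusted p = 0.0509, median of the list −0.239). Of 20 tested vasoactive genes 3 were higher and 1 lower (median 0.272). Agt, angiotensinogen, Rock1, a kinase of smooth muscle contraction, and Ece1, which activates endothelin, were higher (log2 fold changes 0.49 ± 0.12, 0.46 ± 0.11 and 0.38 ± 0.10), and Cbs, which makes hydrogen sulfide, was lower (log2 fold change −0.48 ± 0.11). The calls of Stab1 (control 1, 4 or 5, or NASH 1, 3 or 5), Agt (control 1, 3 or 5, or NASH 1, 2, 3, 4 or 5), Rock1 (control 1, 3 or 4, or NASH 2, 3, 4 or 5) and Cbs (control 1, 4 or 5, or NASH 3 or 5) ended without the rats in brackets, and that of Ece1 in each fit without 1 rat except those without control 2 or control 6. Of the vasoactive genes 0 were called by limma-voom with all 18 rats, with 7 at an unadjusted p under 0.05, 0 were higher without control 1 or 3 or without NASH 2, 3, 4 or 5, and 5 were higher and 1 lower without both control 2 and control 6. The sinusoidal markers had 0 calls by limma-voom with all 18 rats, with 3 at an unadjusted p under 0.05, and 3 higher and 1 lower without both control 2 and control 6, where 2 markers of capillarized endothelium were higher and Krt19 was called (log2 fold change −1.05, adjusted p = 0.0397). Among 5 tested red cell, adipocyte and pancreas genes 0 were called by limma-voom or by edgeR, with 1 at an unadjusted p under 0.05 and 1 called by DESeq2, and Cela1, a pancreatic elastase, had the largest moderated t (log2 fold change −0.66 ± 0.20, adjusted p = 0.0703, median of the list −0.34). The red cell markers summed to 12.6 to 459 CPM in control rats and to 14.5 to 189 CPM in NASH rats, a wide range in both groups.

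The remaining genes with the largest differences were spread over other processes. Cdh17, the liver-intestine cadherin, was the 1 called gene among 9 tested liver cancer and preneoplasia markers (11.1% higher, against 2.86% of all genes, median −0.0568). It had 2.29, 6.08 and 27.6 CPM in control rats and 35.8, 43.4 and 94 CPM in NASH rats, without overlap (log2 fold change 2.99 ± 0.51, adjusted p = 0.00995), and control 3 with 27.6 CPM was the highest control rat. Upp2, a uridine phosphorylase, had 4.21, 13.4 and 23.1 CPM in control rats and 36.6, 63.9 and 115 CPM in NASH rats (log2 fold change 2.41 ± 0.38, adjusted p = 0.00614). Pla2g15, a lysosomal phospholipase, had 6.92, 8.66 and 12.5 CPM in control rats and 15.1, 25.7 and 38 CPM in NASH rats (log2 fold change 1.36 ± 0.24, adjusted p = 0.0112), and Gfra1, a receptor subunit for the growth factor GDNF, had 5.47, 9.28 and 14.1 CPM in control rats and 16.1, 20.9 and 27.8 CPM in NASH rats (log2 fold change 1.26 ± 0.20, adjusted p = 0.00767). Slc35c2, a solute carrier of the secretory pathway, was higher with control 6 far below the other rats at 9.88 CPM (log2 fold change 1.34 ± 0.29, adjusted p = 0.024). All 5 were higher in every NASH rat than in every control rat, which held for 1.77% of all tested genes. The genes with the largest differences were picked among genes without overlap. The separation of these 5, and of Prkcdbp, is therefore a condition of the choice and not a result. Prkcdbp, which encodes a caveolar protein, was lower in every NASH rat, with 13.7, 22.7 and 35 CPM in control rats and 4.52, 8.37 and 11.9 CPM in NASH rats (log2 fold change −1.52 ± 0.26, adjusted p = 0.00965). Of the genes in this paragraph, Slc35c2 lost its call without NASH 3 or NASH 5.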

How the data were processed

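Whole liver RNA of 6 control and 6 NASH rats was sequenced with 1 library per rat. The labels name the RNAqueous-Micro kit for extraction and TruSeq Stranded mRNA for libraries, and the methods of the study the miRNeasy kit. The authors trimmed reads with Trim Galore, aligned them to Rnor_6.0 with STAR in 2 passes and deposited expected counts from RSEM with Ensembl release 95, not normalized (versions not given in the sources used here), for 32623 genes per rat. Expected counts were rounded, and where a symbol had several records the one with most counts was used.

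Genes were filtered by filterByExpr (edgeR 4.0.16), scaled by TMM and tested with limma 3.58.1 (voom, moderated t, 2-sided) in R 4.3.3, adjusted by Benjamini-Hochberg over all 12387 tested genes. CPM are TMM-scaled and not per length. Group values were compared by exact permutation tests in scipy 1.17.1, and the limma script was tested on simulated data. Alternatives were edgeR, DESeq2 1.42.0, other scalings and filters, a fit of all 18 rats, sample quality weights, a replicate block and leaving out each rat. Leaving out controls 2 and 6 together was chosen after seeing the data.

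Named genes are the 12 largest increases and decreases among called genes of at least 10 CPM in the higher group without overlap, up to 4 leading called members per list and direction (the member with the largest moderated t where none was called), members of pathways ordered by role, and genes of proteins that the study measured. Members and the 38 lists were chosen with earlier results of these data known. Results for 9 genes are left out. Listed symbols that matched no record were not analysed here. No 2 rats of a group agreed within counting noise (chi-square per degree of freedom of at least 30.3). Nothing in the labels ties rats of equal number to each other.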

Additional observations from a re-analysis of the deposited data

Results flagged for a closer look

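In 264 groups of 6 rats, 1 for each group and each of the 132 named genes, 29 had a highest or lowest rat far from the others by Dixon's test at its 95% critical value. Chance flags about 1 in 20 groups. NASH 1 stood apart as the highest of its group in Aacs (2.08 CPM), Eln (3.21 CPM) and Lcn2 (91.3 CPM). NASH 2 was the highest of its group, far above the others, in Birc5 (0.58 CPM), Cyp2b2 (1069 CPM) and Gstm3 (27.1 CPM). NASH 3 lay far above the rest of its group in Cdh17 (94 CPM) and Rgs5 (5.29 CPM). NASH 4 stood apart as the highest of its group in Marco (9.2 CPM). NASH 5 was the highest of its group, far above the others, in Thrb (34.9 CPM). NASH 6 lay far above the rest of its group in Cenpe (0.52 CPM). NASH 6 stood apart as the lowest of its group in Agt (783 CPM). Control 1 was the highest of its group, far above the others, in Col3a1 (291 CPM). Control 2 lay far above the rest of its group in Ccnd1 (45 CPM). Control 3 stood apart as the highest of its group in Cdh17 (27.6 CPM) and Lrat (45.5 CPM). Control 5 was the highest of its group, far above the others, in Bub1 (2.63 CPM), Cd68 (17.1 CPM), Clec4f (181 CPM), Krt19 (2.39 CPM) and Prc1 (2.77 CPM). Control 6 lay far above the rest of its group in Abcg5 (9.15 CPM), Cpt1a (322 CPM), Cyp2e1 (1888 CPM), Cyp8b1 (445 CPM), Dbp (28.1 CPM), Per3 (9.88 CPM) and Slc16a10 (18.6 CPM). Control 6 stood apart as the lowest of its group in Slc35c2 (9.88 CPM). Control 6 held several of these values, and it was also the control rat with low fatty acid synthesis genes and high Nr1d1. The NASH values of Cyp2b2 without NASH 2 had a log2 fold change of −0.10 against control. No explanation of these values was tested.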

How the results depend on the processing

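The comparison called 644 genes (354 higher, 290 lower). DESeq2 called 1474 (717 higher, 757 lower), with 642 of the 644 among them, library size scaling only 1774 (1630 higher, 144 lower), with 489 among them, sample quality weights 1177 (611 higher, 566 lower), with 643, all 18 rats in 1 fit 403 (204 higher, 199 lower), with 350, and the 10 rats without controls 2 and 6 2149 (1034 higher, 1115 lower), with 606. An adjusted p under 0.01 held for 59 (33 higher, 26 lower) and a log2 fold change of at least 1 for 170 (84 higher, 86 lower). Leaving out 1 rat gave 221 to 1382 genes, 126 to 672 of them higher and 95 to 710 lower. For the Total count per rat, the difference NASH minus control was −827456 to 1043840 without 1 rat. With edgeR, 725 genes were called, with DESeq2 size factors 657, with no filter 520 and with at least 10 counts in every rat 618. The pairing of rats by number was checked from the deviations from the group means, which correlated by −0.15 to 0.179 for the 6 numbers, and 2 rats correlated best with their own number. They share only a number, and a replicate block called 226 genes (114 higher, 112 lower), 204 of the 644 among them. Of 96 called named genes, 49 stayed called without each single rat, 32 under all alternatives, and 0 changed sign under any of them. The medians of 13 lists changed sign under library size scaling, which moved the median of all genes from 0.00701 to 0.226. Some genes that were not called changed the sign of their log2 fold change. Library size scaling gave 0.18 for Acta2, 0.11 for Msn, 0.15 for Fcgr2b and 0.0695 for Cd163. Leaving out 1 rat gave −0.18 to 0.16 for Acta2, −0.11 to 0.12 for Col1a1 and −0.10 to 1.44 for Cyp2b2. The cause of these changes was not tested. The depth of 19498534 to 29491947 counts limits genes below about 1 CPM, such as several cell cycle genes.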
